A study of Homo sapiens with 2 samples.

Results

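Cyclins and cyclin-dependent kinases (CDKs) were compared between a C33-A line that carries the CA9 cDNA and a C33-A line that carries the empty vector. Members were chosen by gene symbol alone: CDK followed by digits and at most 1 letter, or CCN followed by 1 letter and optional digits, in probe sets paired with exactly 1 symbol. This gave 44 of the 19775 genes named on the array, 26 cyclins and 18 CDKs, in 119 probe sets. Another 7 probe sets that pair a CDK symbol with a second symbol were left out, so CDK3, CDK11A and CDK11B have no value here. No measured value entered this choice, but the family was taken up with the difference of CCND2 already known, so its counts are descriptions and support nothing.

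C33-A is an established human cervical carcinoma line, known to carry no papillomavirus and to have mutant RB1. CA9 encodes carbonic anhydrase IX, a membrane enzyme that hydrates carbon dioxide. The CA9 line was stably transfected with its full-length human cDNA in pcDNA3.0, and the control line with empty vector DNA, which the labels also call mock-transfected. Both were grown adherent in RPMI medium with 10% serum and antibiotics, RNA was extracted on day 4, and 5 µg of total RNA per line went to 1 Affymetrix array. Whether each line is 1 clone or a pool is not stated in the labels. Each line was measured once, so there is no replicate and no test. The line and the culture or array it was read from cannot be told apart, and every value describes these 2 arrays.

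A cyclin is the regulatory subunit that switches on a CDK. In the cell cycle, D-type cyclins act with CDK4 and CDK6 in G1, cyclin E and cyclin A with CDK2 at the start and during S phase, and cyclins A and B with CDK1 in mitosis. The protein levels of these cyclins oscillate through timed synthesis and destruction, and array intensities report only their mRNA. Other members of the family do not drive the cycle. They phosphorylate RNA polymerase II or sit in the Mediator complex, take part in splicing, or act at membranes and in neurons.

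Promoter stretches of 6 members are shown because transcription of the mitotic genes is known to be timed through short promoter elements, and because the cyclin G genes differ from each other in the array values below. Each stretch is the 100 bases before the listed start, 5′ to 3′, from RefSeq on GRCh38.p14. Where RefSeq lists 2 starts (CDK1 and CCNG1) the downstream start was used. Capitals mark 3 kinds of letters searched on both strands, which do not overlap each other in these stretches: CCAAT, the E-box CACGTG, and 3 forms (TTTGAA and also TTCGAA and also CTTGAA) of the cell cycle genes homology region (CHR) that represses genes until G2.
CDK1, chr10:60778378-60778477, plus strand: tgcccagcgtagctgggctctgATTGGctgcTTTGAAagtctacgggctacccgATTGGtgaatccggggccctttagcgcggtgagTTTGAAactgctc
CCNA2, chr4:121823884-121823983, minus strand: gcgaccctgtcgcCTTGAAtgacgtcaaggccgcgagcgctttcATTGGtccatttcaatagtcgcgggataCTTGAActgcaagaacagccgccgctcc
CCNB1, chr5:69167050-69167149, plus strand: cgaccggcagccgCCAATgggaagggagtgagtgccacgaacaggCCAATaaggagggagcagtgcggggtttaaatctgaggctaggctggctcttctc
CCNB2, chr15:59105046-59105145, plus strand: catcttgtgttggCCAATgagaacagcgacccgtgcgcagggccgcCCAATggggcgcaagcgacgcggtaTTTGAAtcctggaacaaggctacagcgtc
CCNG2, chr4:77157107-77157206, plus strand: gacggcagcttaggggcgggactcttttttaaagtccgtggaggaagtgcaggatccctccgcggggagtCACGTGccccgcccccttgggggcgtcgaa
CCNG1, chr5:163437495-163437594, plus strand: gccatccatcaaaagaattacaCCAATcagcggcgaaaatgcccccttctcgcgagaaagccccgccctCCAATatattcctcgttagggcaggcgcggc

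CCAAT stood in 18.1% of all 35116 listed promoter windows of this length and in those of 12 of the 40 member genes listed. The CHR letters stood in 7.83% of all windows and in 4 member genes, which were CDK1, CCNA2, CCNB2 and CCNF. The E-box stood in 3.43% of all windows and in 2 member genes, CCNG2 and CDK7. A member gene was counted when any of its listed windows held the letters, whereas the shares are over single windows. The counts and shares are therefore not on the same basis. In CDK1, CCNA2 and CCNB2 a CHR match began 13, 28 and 29 bases before the start. In CCNG2 the E-box began 30 bases before it. These are matches of letters only, and whether a factor binds them was not measured. No other form of the CHR was searched, so the lack of a CHR match in CCNB1 holds for the searched forms only.

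Intensities were deposited on a linear scale and set on log2, and each difference below is the CA9 log2 value minus the vector log2 value. A gene was read from its brightest probe set by the mean of both arrays. It counted as measurable when at least 1 array exceeded the floor, the median intensity of all probe sets, 40.8. Where the dimmer array lay at or below the floor, a fold is given as "at least" against the floor. Intensities of different probe sets are not on a common scale, so levels were compared between the lines and never between genes. Over 6186 genes, probe sets of 1 gene differed from each other with a pooled SD of 0.31 on the log2 difference. Probe sets share the RNA and the array, so this is technical disagreement only.

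In RNA from a whole culture, a smaller share of cells in a cycle phase and less mRNA per cell cannot be told apart. Of the 44 members, 43 were measurable, 41 of them with both arrays above the floor. The exception was CCNA1, the germ-line cyclin A, with intensities of 16.7 (CA9) and 16.0 (vector). CCND2 was the only member at least 2-fold higher in its brightest probe set and CCNG2 the only one at least 2-fold lower. Of all 13823 measurable genes 1.35% were past 2-fold, 0.651% higher and 0.694% lower, and 1.03% were so with the dimmer array held to the floor, as both members were. At 1.5-fold or more, CCND2, CDK18, CDK15 and CDK16 were higher and CCNG2, CDK19, CCNE2 and CCNT2 lower, against a background of 10.0%, of which 5.29% were higher and 4.74% lower. With equal array medians, 3 members were higher and 5 lower at 1.5-fold, since CDK16 came to 0.56 and CDK17 to -0.62, and of all genes past 2-fold 69 were higher and 123 lower in place of 90 and 96. The members had a median difference of -0.14, with 28 of 43 below 0, and all measurable genes had a median of -0.03, with 53.0% below 0. The members' median shrank to -0.04 after quantile normalization and to -0.03 when the trend of the difference on intensity was removed. All measurable genes then had medians of 0.002 and 0.003.

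**Figure D1:**
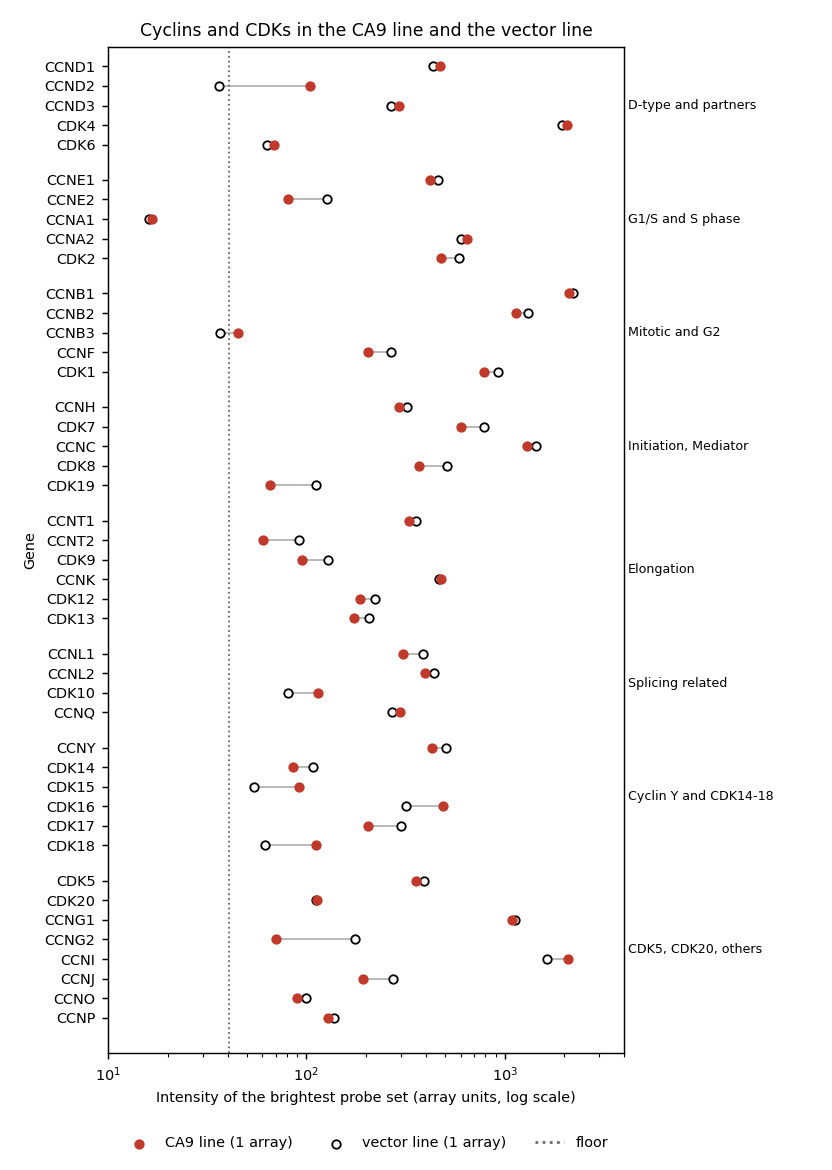
Intensity of the brightest probe set of each of 44 cyclin and CDK genes on a log axis, in the CA9 line (filled points) and the vector line (open points), 1 array each. The dotted line is the floor of 40.8. Most pairs of points lie close together, and CCND2 and CCNG2 have the widest gaps, in opposite directions.

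All 5 D-type cyclins and partner kinases had higher values in the CA9 line in their brightest probe sets, 4 of them by 0.15 or less. Of all 13823 measurable genes 6348 lay above 0. CCND1 gave a CA9-line intensity of 472 against a vector-line intensity of 435, a difference of 0.12, and a second probe set gave 0.32. CCND3 had 294 against 266, a difference of 0.15. CDK4, the main catalytic partner of the D-type cyclins in many epithelial cells, had 2057 against 1938, a difference of 0.09. CDK6, its close relative, had 68.8 against 63.0, a difference of 0.13. A second probe set of CDK6 had 56.7 against 35.7, the latter under the floor, so it was at least 1.39-fold higher. These 5 genes stayed above 0 under equal medians, quantile normalization and removal of the intensity trend, and the 4 small differences lie within the SD between probe sets.

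CCND2, cyclin D2, stood out within this group in 1 of its 4 probe sets. That probe set gave a CA9-line intensity of 105 against a vector-line intensity of 36.1, the latter under the floor, so it was at least 2.57-fold higher. A second probe set above the floor had 54.8 against 52.4, a difference of 0.07. The remaining ones lay below the floor on both arrays, at 36.7 against 31.4 and 20.7 against 18.9. The CA9 line was thus the higher one in every probe set, but only 1 passed 2-fold. Averaging the probe sets above the floor gave 0.80, and averaging all of them gave 0.49. All 4 probe sets are named _s_at, a kind that can match several transcripts, so the name does not set the high one apart. Without such probe sets CCND2 necessarily had no value.

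Among the genes of S phase entry, cyclin E2 had the lower value in the CA9 line and the other measurable genes differed by 0.30 or less in their brightest probe sets. CCNE2 gave a CA9-line intensity of 81.1 against a vector-line intensity of 127, 1.56-fold lower. Its second probe set gave 29.2 against 59.5, at least 1.46-fold lower, so both pointed the same way. CCNE1, the other cyclin E, had 418 against 460, a difference of -0.14. CDK2, the catalytic partner of cyclins E and A, had 476 against 586, a difference of -0.30, with -0.33 in a second probe set and 0.30 in a dimmer one. CCNA2, which acts in S phase and at mitotic entry, had 647 against 603, a difference of 0.10, and its second probe set had 487 against 659, a difference of -0.44. The probe sets of CDK2 and CCNA2 therefore fell on both sides of 0.

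The mitotic cyclins were close to equal on the arrays, whereas CDK1 depended on the probe set. CCNB1, cyclin B1, gave a CA9-line intensity of 2102 against a vector-line intensity of 2224, a difference of -0.08, with -0.05 in a second probe set. CCNB2 had 1143 against 1307, a difference of -0.19, with -0.11 in a second. CDK1, the kinase of mitotic entry, had 791 against 929 in its brightest probe set, a difference of -0.23. Its other probe sets above the floor had 290 against 674, which is 2.33-fold lower, and 394 against 741, which is 1.88-fold lower. All 3 were lower in the CA9 line, but their differences ran from -1.22 to -0.23. A spread this wide or wider was seen in 4.27% of the 5428 genes with 2 or more probe sets above the floor on both arrays. Such a spread tends to grow with the number of probe sets, and the share was not matched to the 3 of CDK1. The pair with the larger differences are named _x_at and _s_at, kinds that can also detect other transcripts, and the brightest is not. Averaging the probe sets above the floor gave -0.79 for CDK1.

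CCNA2, CCNB2 and CDK1, whose promoter stretches share CCAAT and CHR letters, had differences of 0.10, -0.19 and -0.23 in their brightest probe sets. A link between letters and values was not tested. CCNF, a cyclin that serves as the substrate receptor of a ubiquitin ligase and binds no CDK, had 206 against 268, a difference of -0.38. Its second probe set gave 0.43, so its direction is not settled. CCNB3, a cyclin of meiosis, lay near the floor at 45.0 against 36.6.

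**Figure D2:**
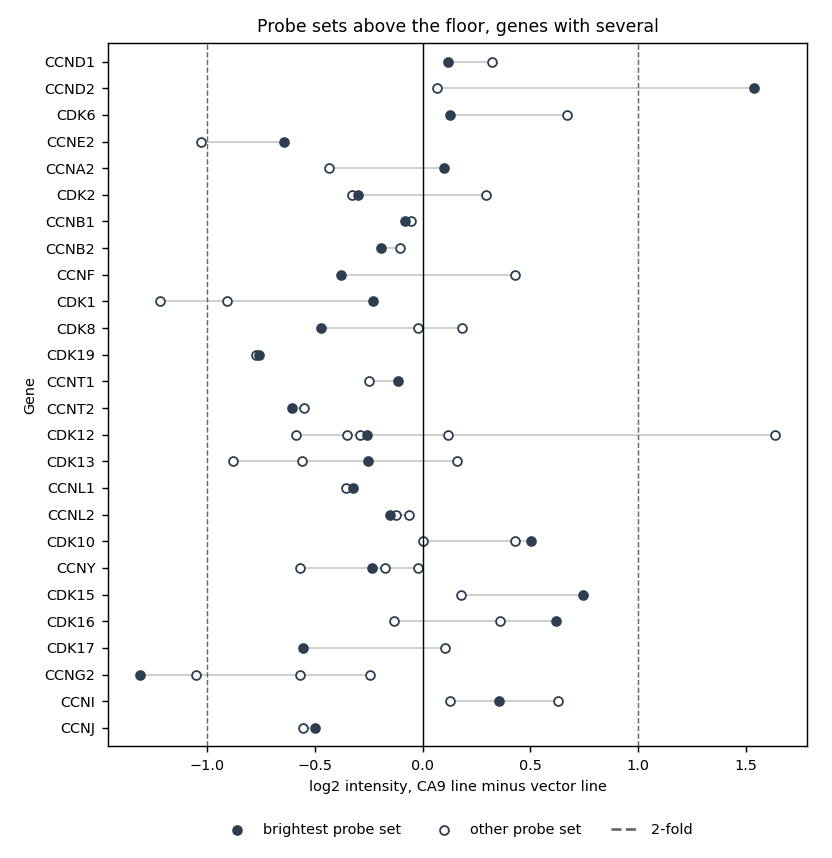
Difference in log2 intensity, CA9 line minus vector line, of every probe set above the floor for the 26 members with more than 1 such probe set. Filled points are the brightest probe sets, open points the others, and dashed lines mark 2-fold. CCNG2, CDK19 and CCNE2 have all points left of 0, while CDK12 spans 0 widely.

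In 17 of 26 members with several probe sets above the floor all of them lay on the same side of 0, that is 65.4%, against 51.2% of the 6186 genes overall. In 12 of the 17 the CA9 line was lower and in 5 it was higher. This split was not counted over all genes, and the shares were not matched for the number of probe sets, so they are descriptions only. Counted by probe set, with the dimmer array held to the floor, 3 of the 86 above the floor were at least 2-fold apart, against 1.09% of all 24174. They were 1 of CCND2 on the higher side and 1 each of CCNG2 and CDK1 on the lower side. The probe sets of CDK12 went both ways. There 1 probe set, at 72.0 against 23.2, was at least 1.76-fold higher, while 4 others had differences from -0.59 to -0.26 and another 0.12.

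The 5 members that act in transcription initiation or the Mediator kinase module had lower values in the CA9 line in their brightest probe sets. Of all measurable genes 53.0% lay below 0. The 5 stayed below 0 under each of the 3 scalings, of which equal medians could only lower them. CDK19, the Mediator kinase closely related to CDK8, gave a CA9-line intensity of 65.7 against a vector-line intensity of 111, 1.70-fold lower. Its second probe set had 44.9 against 76.8, 1.71-fold lower, so the pair differed by 0.01 on the log2 difference. CDK8 had 371 against 515, a difference of -0.47, but its other probe sets gave -0.02 and 0.18. CCNC, the cyclin of both kinases, had 1302 against 1443, a difference of -0.15. CDK7, the kinase that activates other CDKs and phosphorylates RNA polymerase II, had 602 against 791, a difference of -0.39. Its partner CCNH had 292 against 321, a difference of -0.13. The median of these 5 genes was -0.39 in the deposited scaling and between -0.46 and -0.30 in the others.

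Of the 6 members that act in elongation, 5 had lower values in the CA9 line in their brightest probe sets, beside 53.0% of all measurable genes. CCNT2, a cyclin of the elongation factor P-TEFb, gave a CA9-line intensity of 60.6 against a vector-line intensity of 92.3, 1.52-fold lower, and its second probe set was 1.47-fold lower. CCNT1, the other cyclin T, had 331 against 358, a difference of -0.12, with -0.25 in a second probe set. CDK9, the catalytic subunit of P-TEFb, had 95.3 against 129, a difference of -0.43. CDK13 had 174 against 208, a difference of -0.25, and its other probe sets above the floor gave -0.88, -0.56 and 0.16. CDK12, its relative, had 186 against 223 in the brightest probe set, a difference of -0.26. CCNK, the cyclin of CDK12 and CDK13, had 477 against 469, a difference of 0.03 that turned to -0.04 with equal medians.

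The group listed as splicing related holds the L-type cyclins and also CDK10 with its partner CCNQ, and these went opposite ways. Placing CDK10 and CCNQ here is a choice of grouping, so this is no result on splicing. CCNL1 and CCNL2 were lower in the CA9 line in every probe set above the floor. CDK10 and CCNQ were higher in their brightest probe sets, and CDK11A and CDK11B of this group have no value here. CCNL1, a cyclin found in nuclear speckles, had 308 against 385, a difference of -0.32, with -0.36 in a second probe set. CCNL2 had 397 against 442, a difference of -0.15, with -0.12 and -0.07 in the others. CDK10 had 114 against 80.5, a difference of 0.50, with 0.43 in a second probe set. The remaining probe set of CDK10 had exactly 87.5 on both arrays, 1 of 1425 probe sets with equal deposited values. CCNQ, the cyclin partner of CDK10, had 298 against 269, a difference of 0.15.

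Within the group of cyclin Y and its kinases, 3 kinases had higher values and the remaining genes lower ones. CDK18, a PCTAIRE kinase, gave a CA9-line intensity of 112 against a vector-line intensity of 61.5, 1.82-fold higher in its single probe set. CDK15, a PFTAIRE kinase, had 91.4 against 54.7, 1.67-fold higher, with 0.18 in a second probe set. CDK16, a PCTAIRE kinase activated by cyclin Y, had 489 against 319, 1.54-fold higher, but its other probe sets gave 0.36 and -0.13. All probe sets of CDK18 and CDK16 are named _s_at or _x_at, kinds that can match several transcripts, so without them neither gene had a value. CDK17 had the lower value in the CA9 line, 204 against 300, a difference of -0.56, with 0.10 in a dim second probe set. CDK14 had 85.3 against 108, a difference of -0.34. CCNY, the membrane-bound cyclin of these kinases, had 429 against 505, a difference of -0.23, and its other probe sets above the floor ran from -0.57 to -0.02.

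**Figure D3:**
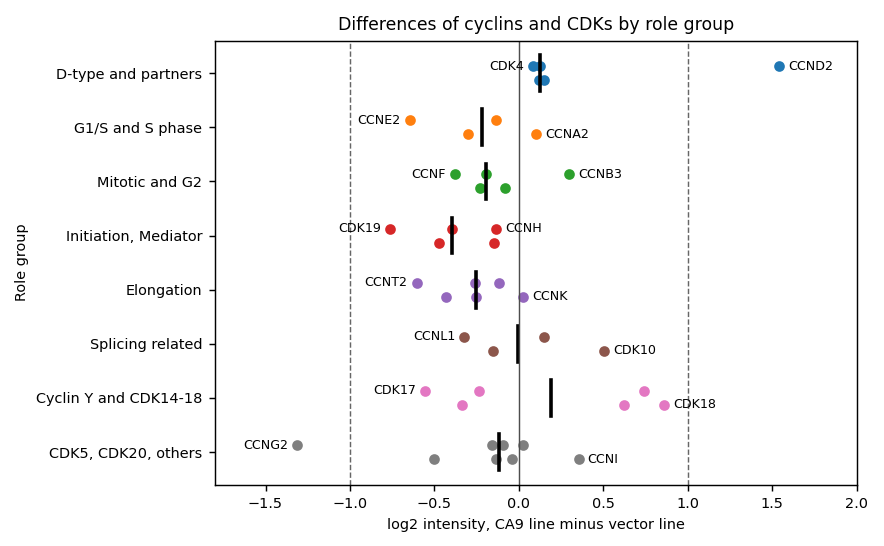
Difference in log2 intensity, CA9 line minus vector line, of the 43 measurable members in 8 role groups, 1 point per gene at its brightest probe set. Black bars are medians and dashed lines mark 2-fold. The D-type group lies right of 0 with a median of 0.13, and the initiation and Mediator group left of 0 with a median of -0.39.

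CCNG2 had the most negative difference of the members. Cyclin G2 is an unconventional cyclin that activates no classical CDK, is linked to cell cycle arrest, and is known as a target of FOXO factors. Its brightest probe set gave a CA9-line intensity of 70.4 against a vector-line intensity of 175, 2.49-fold lower. A second had 38.3 against 79.5, at least 1.95-fold lower against the floor, and the others 46.0 against 68.2 and 48.2 against 57.1. The CA9 line was the lower one in all 4, and also in a dim probe set below the floor, at 28.1 against 38.1. Their differences ran from -1.31 to -0.25, and their average was -0.80, short of 2-fold. CCNG1, the other cyclin G, had 1093 against 1123, a difference of -0.04 that turned to 0.01 after quantile normalization. In the promoter stretches above, CCNG2 holds the E-box and no CCAAT, and CCNG1 holds 2 CCAAT and no E-box. These stretches were picked because the array values of the cyclin G genes differ. Whether the letters have a part in that difference was not tested.

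The remaining members differed less. CCNJ had 193 against 273, a difference of -0.50, with -0.56 in a second probe set. CCNI, a widely expressed cyclin without strong oscillation, had 2087 against 1634, a difference of 0.35, with 0.13 and 0.63 in the others, so all 3 were higher. CDK5, a kinase best known from neurons, had 355 against 390, a difference of -0.14. CCNO, CCNP and CDK20 had differences of -0.16, -0.10 and 0.03, the last turning to -0.04 with equal medians.

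Regulators of the family were taken from lists chosen by function. Measurable were 7 CDK inhibitors, 8 genes acting on CDKs and 19 of cyclin destruction. The other lists had 18 RB and E2F genes, 15 CDK partners or CDK-like kinases and 9 genes upstream of cyclin D2. Of all measurable genes 1.35% were past 2-fold and 10.0% past 1.5-fold, and the calls below are descriptions beside these shares. The CDK5 activator CDK5R1 was the only regulator past 2-fold in its brightest probe set. It gave a CA9-line intensity of 43.2 against a vector-line intensity of 92.3, 2.14-fold lower, while its second probe set lay below the floor on both arrays, at 33.1 against 27.2. WEE1, the kinase that holds CDK1 inactive, came near 2-fold with 587 against 1156, 1.97-fold lower, and its second probe set had a difference of -0.34. None of the other 7 genes that act on CDKs directly passed 1.5-fold in its brightest probe set, and PKMYT1, the other inhibitory kinase of CDK1, had 0.32. The CDC25 phosphatases, which remove the inhibitory phosphates, had -0.14 for CDC25A, 0.27 for CDC25B and -0.23 for CDC25C. CDC25A had 0.11 and 0.62 in its other probe sets, so its direction is not settled, and CDC25C had -0.68 in its second one above the floor.

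Of 7 CDK inhibitor genes measurable, none passed 2-fold, and CDKN1C alone passed 1.5-fold with the dimmer array held to the floor. CDKN1C, which encodes p57, had 67.5 against 37.8, at least 1.65-fold higher against the floor, and its 3 other probe sets above the floor were higher too. All of these lay under the floor in the vector line, and most are named _x_at, a kind that can also detect other transcripts. A further CDKN1C probe set, below the floor on both arrays, had a difference of -0.14. CDKN2B, which encodes p15, had 42.6 against 26.0 and lay barely above the floor, so it was at least 1.04-fold higher. CDKN2A, the gene of p16, which is commonly high where RB is inactive, had 2659 against 2739, a difference of -0.04. CDKN1B, the gene of p27, had 558 against 676, a difference of -0.28. CDKN1A, which encodes p21, had 44.2 against 49.1, a difference of -0.15.

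Among 18 measurable RB and E2F genes 15 lay below 0 and none passed 2-fold, with a median of -0.14. Of all measurable genes 53.0% lay below 0, with a median of -0.03. The RB and E2F count below 0 was 11 after quantile normalization and 12 with the intensity trend removed. The median of all measurable genes was 0.002 and 0.003 in those scalings. E2F3, an activator of S phase genes, had 176 against 293, 1.67-fold lower, with -0.21 in a second probe set. LIN52, a subunit of the complex that acts through CHR elements, had -0.62, with -0.09 in a second probe set. RB1 had 103 against 130, a difference of -0.34, and FOXM1, an activator of mitotic genes, had -0.03. MYBL2 had the highest value of the list, 0.23.

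The 19 measurable genes of cyclin destruction had a median of -0.15, beside -0.03 for all measurable genes. In brightest probe sets only ANAPC11, a subunit of the anaphase-promoting complex, passed 1.5-fold, at 1198 against 1800, a difference of -0.59. CDC27, another subunit, was highest at 0.27, but its 3 other probe sets had -0.21, -0.52 and -0.68. SKP2, which targets p27, and FBXW7, which targets cyclin E, had 0.16 and -0.16. Of 15 CDK partners and CDK-like kinases 12 lay below 0, beside 53.0% of all measurable genes. These 12 include the cyclin Y relative CCNYL1, 1.75-fold lower at 129 against 226 with -0.64 in a second probe set, and CABLES2, 1.58-fold lower. CDK2AP2 was 1.60-fold higher at 256 against 160. Of 9 genes that act upstream of cyclin D2, MYC had -0.29 and FOXO1 -0.45, with -0.41 in a second probe set. FOXO3 had -0.35, with -0.02 and 0.47 in others above the floor, so its direction is not settled. MYCN had 0.46, the highest of the list, and its 3 other probe sets above the floor ran from -0.03 to 0.51. STAT5B was 1.56-fold lower in its brightest probe set, and its 4 others ran from -0.33 to 0.13.

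**Figure D4:**
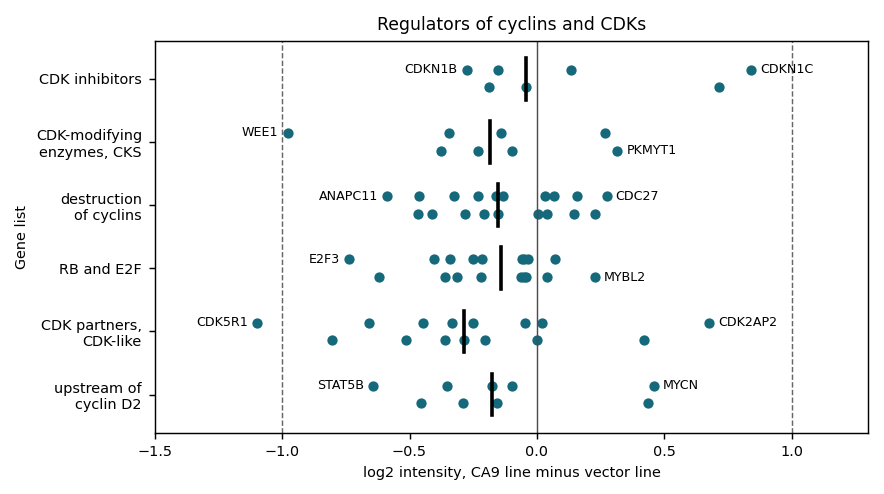
Difference in log2 intensity, CA9 line minus vector line, of measurable genes in 6 lists of cyclin and CDK regulators, 1 point per gene at its brightest probe set. Black bars are medians and dashed lines mark 2-fold. CDK5R1 is the only point beyond 2-fold, and WEE1 lies just inside it at -0.98.

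The labels give an epithelial cell line. Of 5 epithelial markers, EPCAM and CDH1 lay below the floor on both arrays, and KRT8 (101 against 68.3), KRT18 (80.2 against 56.1) and KRT19 (44.7 against 39.4) were measurable and higher in the CA9 line. Of the blood markers, CD3E lay below the floor on both arrays PTPRC passed the floor in the vector line only, at 58.1, and CD14 in the CA9 line only, at 57.1. Of 6 fibroblast and endothelial markers 5 were measurable, with differences from -0.05 to 0.39. COL3A1, a collagen gene of this list, had 2538 against 2339, far above the floor, and COL1A1 had 164 against 170. The markers thus do not all follow the labelled epithelial type. Their part in the differences of the cyclins and CDKs was not tested.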

How the data were processed

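The 2 samples are RNA from the CA9 line and the vector line, 1 array each. The authors deposited 1 intensity per probe set and array, and the submitters' processing notes name RMA, whose version and settings are not given in the sources used here. Log2 values are usual for RMA, but the deposited intensities, from 6.79 to 17091, were read as linear and set on log2 without a pseudocount. Median intensities were 41.8 (CA9) and 40.1 (vector). The number of arrays limits the precision. A platform annotation table gave the gene names, with 1 symbol for 41091 probe sets. Updating symbols through Entrez identifiers (41037 matched RefSeq of GRCh38.p14) changed no member.

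Values were summarised with Python 3.11.15, numpy 2.4.6 and pandas 2.3.3, trends with statsmodels 0.14.6 (lowess, span 0.3), and figures with matplotlib 3.10.9. Calls are by size, 2-fold or 1.5-fold. Counting was tested on simulated data. Named in full were the A, B, D and E cyclins with CDK1, CDK2, CDK4 and CDK6, every member with a probe set past 1.5-fold, and the extremes of each group; the other members were added after their values were seen. Members and lists were chosen with earlier results of these data known.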

Additional observations from a re-analysis of the deposited data

How the results depend on the processing

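Across 9 alternatives, 28 named members gave 242 differences, of which 227 stayed on their side of 2-fold within the SD between probe sets, 11 moved by more than that SD, 4 fell short of 2-fold and none of the called ones changed sign. Removing or raising the floor cannot alter the difference of a brightest probe set, and updating symbols changed no member. Equal medians shifted every difference by the same amount, less than that SD. Many of the 227 were therefore fixed in advance, so this count is no measure of stability. The median difference of the members moved from -0.14 to -0.20 with equal medians. It moved to -0.039 after quantile normalization and to -0.035 with the intensity trend removed. Beside it, the median of all measurable genes went from -0.03 to -0.095, 0.002 and 0.003 in these settings. With equal medians the move was fixed in advance. A move was counted when it passed the SD between probe sets divided by the square root of the number of genes. That rule treats genes of 1 array pair as independent, so it measures no spread between cultures. The count of members past 2-fold went from 2 to 0 with the mean of all probe sets and to 0 with the mean of those above the floor, where CCND2 and CCNG2 both fell short. It was 1, CCNG2, without probe sets named _x_at or _s_at (31 members measurable) and 1, also CCNG2, with the floor at the 75th percentile (37 members). The count past 1.5-fold went from 8 to 3 with the mean of all probe sets and to 5 with the higher floor. Fewer measurable members account for some of these losses; otherwise the cause was not tested. No paired analysis was possible because each line has 1 array and no test was made. Signal near the floor limits CCND2, CCNB3, CDK6, CDKN1C, CDKN2B and CDK5R1.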
